A study of Homo sapiens with 2 samples.

Results

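The matrix metalloproteinases (MMPs) and their tissue inhibitors (TIMPs) were examined in the RNA-seq data of H2087 and H596 cells. The 10 genes were taken by symbol from the expression tables of 27685 genes: the proteinases MMP1, MMP2, MMP7, MMP9, MMP10, MMP14 and MMP15, and the inhibitors TIMP1, TIMP2 and TIMP3. All 10 were listed, each once. H2087 and H596 are established human lung cancer cell lines that the labels give as lung adenocarcinoma, both untreated and grown in RPMI medium with fetal bovine serum. The lines had 1 library each. There was thus no replicate check and no test between them, and the intervals below stand for counting error alone. Estimated counts summed to 46961500 in H2087 and 55387847 in H596.

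MMPs are zinc endopeptidases that cleave collagens, laminins and other proteins outside the cell. They are made as inactive precursors, and most are secreted, while the membrane-type MMPs are anchored at the cell surface. TIMPs bind the active site and block it. In lung tumors these enzymes are studied for their part in invasion, and much of the MMP2 and MMP9 of tumor tissue is known to come from stromal cells and leukocytes.

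Of the members at a mean FPKM of 1 or more, MMP7, TIMP3 and MMP14 differed most, all higher in H596. MMP7 had an FPKM (the fragment count divided by transcript length and by library size) of 0.253 in H2087 and 16.2 in H596. TIMP3 had an FPKM of 1.60 in H2087 compared with 34.9 in H596, and MMP14 one of 7.44 and 48.4. TIMP1 was the most abundant member in both libraries, at an FPKM of 102 in H2087 compared with 99.6 in H596. The gelatinase genes MMP2 and MMP9 were below an FPKM of 0.2 in both.

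Before the values, the upstream sequences of 4 members that were higher in H596 are shown, because they fall into different kinds. Of the 10 members, 6 matched the RefSeq promoter sequences of GRCh38.p14 by symbol (MMP7, MMP10, MMP14, MMP15, TIMP1 and TIMP3). The 250 bases before the annotated start were searched on both strands for TGANTCA, the AP-1 motif, for the TATA box TATAAA, and for the GC box GGGCGG. No match overlapped another. Capitals mark the matches.

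MMP7: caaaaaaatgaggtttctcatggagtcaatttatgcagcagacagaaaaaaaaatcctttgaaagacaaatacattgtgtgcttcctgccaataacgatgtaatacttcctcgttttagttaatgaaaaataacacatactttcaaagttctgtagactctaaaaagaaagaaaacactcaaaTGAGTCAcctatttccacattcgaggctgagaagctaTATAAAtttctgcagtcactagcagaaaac

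MMP10: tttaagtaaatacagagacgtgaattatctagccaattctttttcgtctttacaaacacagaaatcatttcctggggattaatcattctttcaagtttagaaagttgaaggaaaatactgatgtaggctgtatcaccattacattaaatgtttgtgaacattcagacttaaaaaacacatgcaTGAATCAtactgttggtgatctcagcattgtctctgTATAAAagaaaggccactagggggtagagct

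MMP14: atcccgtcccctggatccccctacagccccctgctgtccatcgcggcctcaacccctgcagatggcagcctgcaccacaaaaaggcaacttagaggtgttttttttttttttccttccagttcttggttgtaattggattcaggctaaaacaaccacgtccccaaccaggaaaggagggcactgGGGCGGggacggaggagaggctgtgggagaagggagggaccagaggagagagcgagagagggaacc

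TIMP3: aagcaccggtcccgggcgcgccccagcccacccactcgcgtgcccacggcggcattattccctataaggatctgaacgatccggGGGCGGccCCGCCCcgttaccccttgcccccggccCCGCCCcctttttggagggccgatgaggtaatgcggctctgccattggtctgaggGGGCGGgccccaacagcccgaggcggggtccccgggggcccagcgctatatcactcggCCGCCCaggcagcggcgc

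These windows lie at chr11:102530748-102530997 on the minus strand for MMP7, chr11:102780629-102780878 on the minus strand for MMP10, chr14:22836335-22836584 on the plus strand for MMP14 and chr22:32801455-32801704 on the plus strand for TIMP3. In MMP7 the AP-1 match TGAGTCA begins 67 bases before the start, and in MMP10 the match TGAATCA begins at the same distance. A TATA box begins 30 bases before the start in MMP7 and 31 bases before it in MMP10. The 4 other members with a sequence, MMP14, MMP15, TIMP1 and TIMP3, held neither motif in this window. They held GC boxes instead: 1 in MMP14, 2 in TIMP1, 5 in MMP15 and 5 in TIMP3, and MMP7 and MMP10 held none. Of 35116 promoters of this length, 6.57% held the loose AP-1 form TGANTCA, 10.7% the TATA box and 42.6% the GC box. The GC content was 33.6% in MMP7 and 34.4% in MMP10, against a median of 58% over all promoters, and it was 56.8% in MMP14, 64.8% in TIMP1, 72.4% in TIMP3 and 74.8% in MMP15. The members that were higher in H596 thus included both kinds of promoter. A match describes letters only and is no evidence that a factor was bound.

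Each value is an FPKM with the 95% Wilson interval of the gene's share of the total count. The H2087 value of log2(FPKM + 1) was subtracted from the H596 value in the 13048 genes whose mean FPKM reached 1, and a gene was called where the difference was at least 2-fold (1 on this scale). The pseudocount of 1 understates the change of low genes, so the plain ratio of FPKM is given as well. Of the 10 members, 7 reached this mean and 3 (MMP2, MMP9 and MMP10) did not. MMP7 reached it only through its level in H596 and MMP1 only through that in H2087. Of the 7, 3 were called higher in H596, 0 were called lower and 4 were not called, with a median difference of 0.39. Over all genes compared, 32.4% were called, 18.2% higher and 14.2% lower in H596, so the share of called members is not far from the background and is not read as a property of the family. With counts scaled by TMM (edgeR) and not divided by length, the members split into 3 higher and 1 lower. The lower call was MMP1, at a difference of -1.10. The pseudocount of 1 was then added to scaled counts instead of FPKM, so this call cannot be credited to TMM alone. With a pseudocount of 0.1 on FPKM and no TMM scaling, MMP1 passed as well, at -1.28. The median difference over all these genes was 0.12 as deposited, 0.01 with TMM and 0.30 in TPM.

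**Figure D1:**
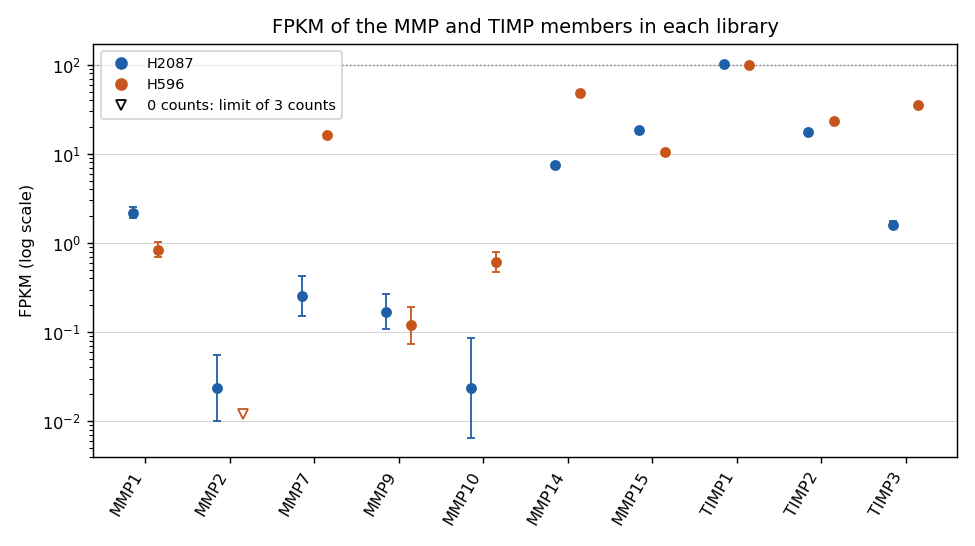
FPKM on a log axis of the 10 members in H2087 and H596, 1 library each; bars are 95% Wilson intervals of counting error, the open triangle is the limit that a count of 0 allows, and the dotted line marks an FPKM of 100. TIMP1 lies at this line in both libraries, MMP7, TIMP3, MMP14 and MMP10 are higher in H596, and MMP2 and MMP9 are low in both.

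Among the membrane-type enzymes, the order of the 2 listed members was opposite in the 2 libraries. MMP14, which cleaves collagen at the cell surface and is known to activate the MMP2 precursor, is encoded on chromosome 14 (hg19, 23305742 to 23316808; gene ID 4323). Its FPKM was 7.44 in H2087 (95% interval, 7.05 to 7.86, from 1283 counts) and 48.4 in H596 (47.4 to 49.3, from 9867 counts). MMP14 was thus 6.50-fold higher in H596 (95% interval, 6.13 to 6.89), and 3.17% of the genes compared had a difference towards H596 at least as large. MMP15 (gene ID 4324), another membrane-type MMP, is on chromosome 16 from 58059470 to 58080804. MMP15 had an FPKM of 18.5 in H2087 (17.9 to 19.1, from 3763 counts) compared with 10.4 in H596 (9.99 to 10.8, from 2506 counts). It was 1.78-fold higher in H2087 (1.69 to 1.87), which exceeds counting error and is below the 2-fold limit. The ratio of MMP14 to MMP15 was 0.403 ± 0.013 (SE of counting) in H2087 and 4.66 ± 0.10 in H596. MMP14 ranked 7342 among all genes in H2087 and 1556 in H596, while MMP15 ranked 4045 and 6585.

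Among the secreted members, MMP7 had the widest ratio. MMP7, or matrilysin, is a small epithelial MMP that lacks the hemopexin domain of most others, and its gene (ID 4316) spans 102391239 to 102401484 of chromosome 11. The FPKM was 0.253 in H2087 (0.151 to 0.425, from 14 counts) and 16.2 in H596 (15.2 to 17.2, from 1034 counts), a ratio of 63.9 (95% interval, 37.9 to 117). On the log2(FPKM + 1) scale this is a difference of 3.78, and 135 of the 13048 genes, 1.03%, had a difference towards H596 at least as large.

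MMP1 and MMP10 were both low, and they differed in opposite directions. MMP1 is the interstitial collagenase, which cuts fibrillar collagen, and its gene (ID 4312) spans 102660641 to 102668966 of chromosome 11. The FPKM was 2.19 in H2087 (1.92 to 2.50, from 216 counts) and 0.843 in H596 (0.692 to 1.03, from 99 counts). The ratio was 2.60 in favour of H2087 (2.04 to 3.33), although the difference on the log2(FPKM + 1) scale, -0.79, missed the 2-fold limit. All of its counts were placed on transcript NM_002421, and the other listed transcript had 0 counts in both libraries. MMP10, or stromelysin 2 (gene ID 4319), lies on chromosome 11 from 102641233 to 102651359 and had 2 counts in H2087 and 61 in H596, or an FPKM of 0.0236 (0.00647 to 0.0861) and 0.610 (0.475 to 0.784). The ratio was 25.9 with a counting interval of 6.86 to 218, which the 2 counts of H2087 make wide. MMP10 therefore differed in the same direction as MMP7, and MMP1, next to it on the chromosome, in the other.

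The gelatinases MMP2 and MMP9 degrade denatured collagen and the type IV collagen of basement membranes. MMP9 (gene ID 4318), on chromosome 20 from 44637547 to 44645200, had 19 counts in H2087 and 16 in H596, or an FPKM of 0.169 (0.108 to 0.264) and 0.119 (0.0731 to 0.193). Its ratio, H596 over H2087, was 0.703 with an interval of 0.338 to 1.44, so a difference was not detectable at this depth. MMP2 (gene ID 4313), on chromosome 16 from 55512742 to 55540603, had 5 counts in H2087, an FPKM of 0.0236 (0.0101 to 0.0551), and 0 counts in H596. A count of 0 allows up to 3 counts, an FPKM of 0.0120, so MMP2 was at least 1.97-fold lower in H596 by its point value, while the interval of the H2087 value reaches below that limit. The 5 counts were all on NM_004530, 1 of 5 listed MMP2 transcripts.

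Of the inhibitors, TIMP1 and TIMP2 were close between the libraries and TIMP3 was not. TIMP1 inhibits most secreted MMPs and is a weak inhibitor of MMP14. Its gene (ID 7076) spans 47441690 to 47446190 of chromosome X. The FPKM was 102 in H2087 (99.3 to 105, from 4490 counts) and 99.6 in H596 (96.9 to 102, from 5176 counts). TIMP1 was above 97.5% of genes in H2087 and above 97.7% in H596. An FPKM of 100, the level at which the study called a gene highly expressed, lies within both intervals. The ratio was 0.974 (0.936 to 1.01), and the sign of this difference depended on the scaling, from -0.16 with TMM to 0.14 in TPM.

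TIMP2, which with MMP14 forms the surface complex that activates the MMP2 precursor, is encoded from 76849059 to 76921472 of chromosome 17 (gene ID 7077). The FPKM was 17.7 in H2087 (17.1 to 18.3, from 3097 counts) and 23.4 in H596 (22.7 to 24.1, from 4852 counts). This is a ratio of 1.32 (1.26 to 1.38), larger than counting error and below the 2-fold limit. The ratio of TIMP2 to MMP14 was 2.38 ± 0.08 (SE of counting) in H2087 and 0.484 ± 0.008 in H596. The TIMP2 transcript was thus the more abundant of the pair in H2087 and the MMP14 transcript in H596. The MMP2 transcript was near 0 in both.

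TIMP3 is bound to the extracellular matrix and also inhibits several proteinases of the ADAM family, which release proteins from the cell surface. Its gene (ID 7078) spans 33196802 to 33259028 of chromosome 22. The FPKM was 1.60 in H2087 (1.46 to 1.76, from 422 counts) and 34.9 in H596 (34.3 to 35.6, from 10875 counts). TIMP3 was 21.8-fold higher in H596 (19.8 to 24.1), a difference of 3.79 on the log2(FPKM + 1) scale, and 1.03% of the genes compared had a difference in this direction at least as large. The ratio of TIMP3 to TIMP1 was 0.0157 ± 0.0008 (SE of counting) in H2087 and 0.351 ± 0.006 in H596.

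**Figure D2:**
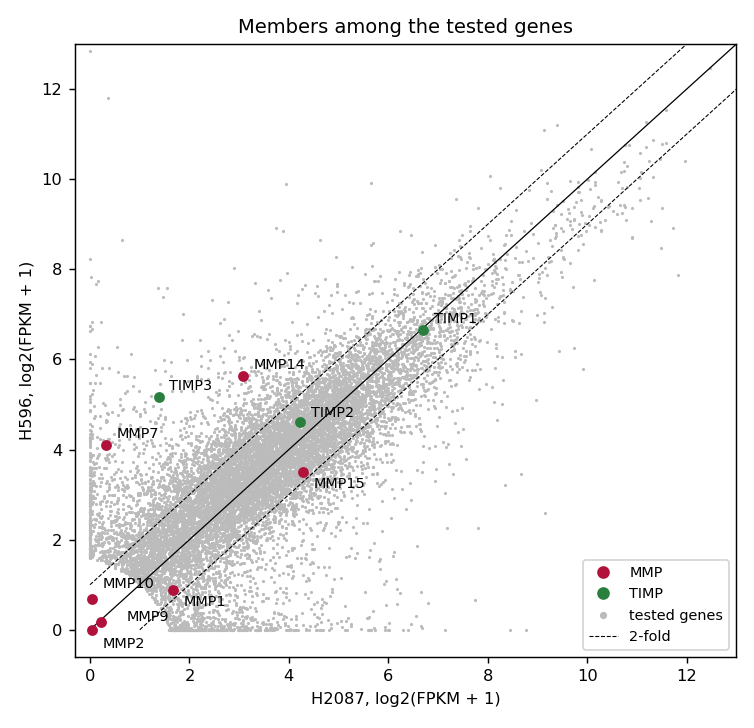
Levels in H2087 (x axis) and H596 (y axis) as log2(FPKM + 1); grey points are the 13048 genes whose mean FPKM reached 1, and coloured points are the 10 members, including the 3 below that mean. MMP7, TIMP3 and MMP14 lie above the upper 2-fold line, TIMP1 lies near the diagonal, and MMP1 and MMP15 lie inside the lower 2-fold line.

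Some members share their locus with another listed gene. TIMP1 lies wholly inside SYN1 and TIMP3 wholly inside SYN3, on the opposite strand and in intronic sequence, with 0 annotated exons (GENCODE) of the host gene in the span of either. SYN1 had 0 counts in H2087 and 2 in H596, and SYN3 had 0 in both. CEP295NL, inside the span of TIMP2 and on its strand, had 5 and 0 counts, and WTAPP1, whose span contains MMP1, had 0 and 4. LOC100128028 overlaps MMP9 and had 27 counts in H2087 and 0 in H596, more than the 19 counts of MMP9 in H2087, so the MMP9 value of H2087 is uncertain. TIMP4, the inhibitor gene that is no member, lies inside SYN2, which had 26 and 0 counts. It is not stated how reads of overlapping genes were divided, and their part in these values was not tested.

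The members were then set against the other genes of both families. Of 18 other MMP and TIMP genes listed, 5 (MMP11, MMP13, MMP16, MMP17 and MMP28) had an FPKM of at least 1 in a library, 6 were detected below that, at 0.495 or less, and 7 had 0 counts in both. Of the 5, MMP13 and MMP17 were high in H2087 and MMP28 in H596. MMP16 did not reach a mean FPKM of 1. MMP11, MMP13 and MMP17 reached it only through H2087, and MMP28 only through H596. All 4 were called, against 32.4% of all genes compared, and their calls thus rest in part on that filter. MMP13, or collagenase 3, had an FPKM of 15.4 in H2087 (14.7 to 16.1, from 2008 counts) compared with 0.184 in H596 (0.128 to 0.264, from 29 counts), an 83.7-fold difference. MMP17, an MMP anchored by a lipid tail, had an FPKM of 10.2 in H2087 (9.60 to 10.8) compared with 0.0872 in H596 (0.0499 to 0.152). MMP28, or epilysin, had 0 counts in H2087 and 2238 counts in H596, an FPKM of 18.2 (17.4 to 18.9), which is at least 632.5-fold higher. MMP11, or stromelysin 3, had an FPKM of 2.53 in H2087 compared with 0.314 in H596. MMP16, a membrane-type MMP, had 0 counts in H2087 and an FPKM of 1.31 from 473 counts in H596, at least 134-fold higher. TIMP4 had an FPKM of 0.319 (0.216 to 0.470) in H2087 compared with 0.194 (0.123 to 0.307) in H596, with overlapping intervals.

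Over the whole families, 9 of 28 genes had an FPKM of at least 1 in H2087 compared with 8 in H596, and 5 had it in both: MMP14, MMP15, TIMP1, TIMP2 and TIMP3. The 24 MMP genes summed to an FPKM of 57.0 ± 0.6 (SE of counting) in H2087 and 97.5 ± 0.8 in H596. MMP15 held 32.4% of this sum in H2087, followed by MMP13 with 27.0%, MMP17 with 17.8% and MMP14 with 13.1%. In H596, MMP14 held 49.6%, MMP28 18.6%, MMP7 16.6% and MMP15 10.7%. The 6 membrane-type MMPs (MMP14, MMP15, MMP16, MMP17, MMP24 and MMP25) summed to 36.2 ± 0.5 in H2087 and 60.2 ± 0.5 in H596. The 18 others summed to 20.7 ± 0.4 and 37.3 ± 0.7. These sums thus differed by less than 2-fold, while the leading genes were different in the 2 libraries. The 7 member MMPs alone summed to 28.6 ± 0.4 in H2087 and 76.5 ± 0.7 in H596, a 2.68-fold difference.

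The 4 TIMP genes summed to an FPKM of 121.8 ± 1.6 (SE of counting) in H2087 and 158.1 ± 1.5 in H596. TIMP1 held 83.9% of it in H2087 and 63.0% in H596, TIMP2 held 14.5% and 14.8%, and TIMP3 held 1.31% and 22.1%. For the 10 members, the summed TIMP values were 4.25 ± 0.08 times the summed MMP values in H2087 and 2.06 ± 0.03 times in H596. With all 28 genes these ratios were 2.14 ± 0.04 and 1.62 ± 0.02, because MMP13, MMP17 and MMP28 are not among the members. The direction between the libraries rested on the measure: from estimated counts that are not divided by length the member ratios were 1.51 and 1.54, and without the highest member on each side (TIMP1 and MMP15 in H2087, TIMP1 and MMP14 in H596) they were 1.91 and 2.07, both slightly higher in H596. In each of these settings the summed inhibitor values exceeded those of the proteinases in both libraries.

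**Figure D3:**
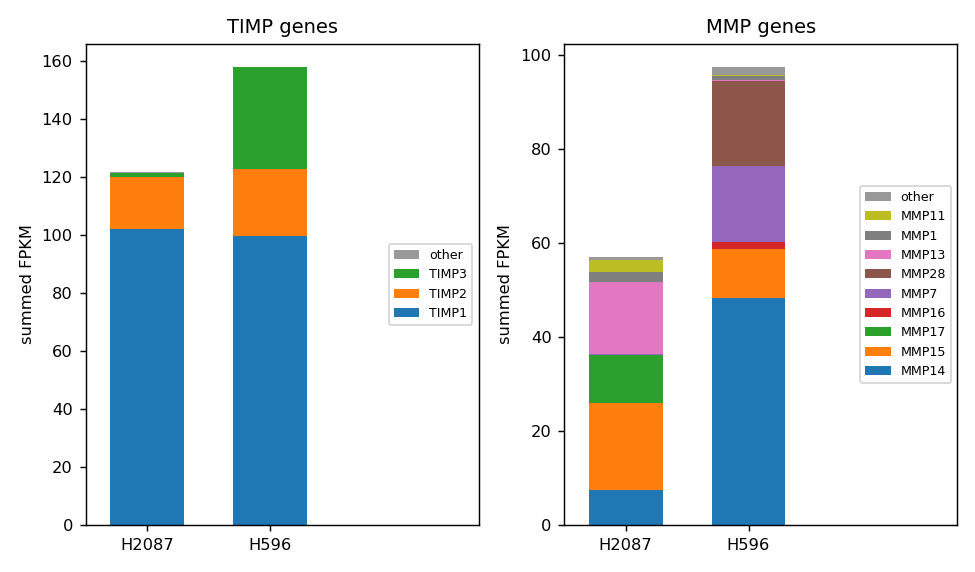
Summed FPKM of the TIMP genes (left) and of the MMP genes (right) in each library, stacked by gene, with the remaining genes as "other". The TIMP bar of H596 gains TIMP3, and the MMP bar consists mainly of MMP15, MMP13, MMP17 and MMP14 in H2087 and of MMP14, MMP28, MMP7 and MMP15 in H596.

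MMP7, MMP10 and MMP1 belong to a cluster of 9 MMP genes on chromosome 11 that covers 435 kb, from MMP7 at 102391239 to the end of MMP13 at 102826463. In chromosome order these are MMP7, MMP20, MMP27, MMP8, MMP10, MMP1, MMP3, MMP12 and MMP13. MMP20, MMP27, MMP8 and MMP3 had 0 counts in both libraries, and 5 genes were detected. The summed FPKM of the cluster was close, 17.9 in H2087 and 18.3 in H596, but it came from opposite ends. MMP13, the last gene, held 86.2% of it in H2087, and MMP7, the first, held 88.4% in H596. MMP12, or macrophage elastase, had 0 counts in H2087 and 53 in H596, an FPKM of 0.495. The genes on either side differed less than MMP7 and MMP13, the ends of the cluster. On the MMP7 side, YAP1 had an FPKM of 37.5 in H2087 compared with 47.3 in H596, BIRC3 of 3.10 and 5.71, BIRC2 of 10.8 and 21.4, and TMEM123 of 122 and 130. On the MMP13 side, DCUN1D5 had 8.41 and 3.30 and DYNC2H1 had 5.53 and 3.12. Of these 6 flanking genes, DCUN1D5 alone passed the 2-fold limit on the log2(FPKM + 1) scale.

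**Figure D4:**
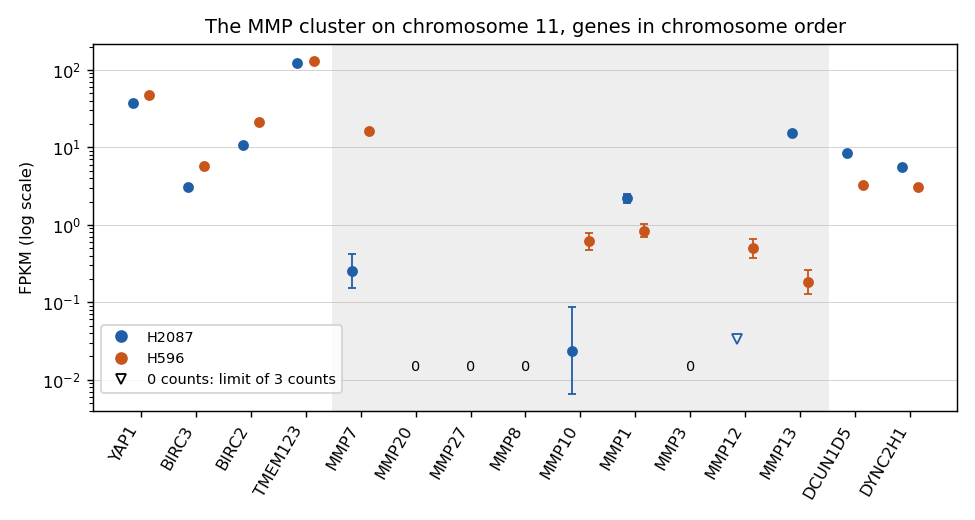
FPKM on a log axis of the 9 MMP genes of the chromosome 11 cluster (grey area) and of the genes on either side, in chromosome order; bars are 95% Wilson intervals, the open triangle is the limit for 0 counts, and "0" marks genes with 0 counts in both libraries. MMP7 at one end is high in H596 and MMP13 at the other end is high in H2087.

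Other genes of the MMP pathway were grouped by role. The share called was 66.7% for activation and surface partners, 66.7% for other protease inhibitors and 60% for ADAM and ADAMTS genes. It was 81.8% for matrix substrates and 75% for AP-1 and ETS genes, against 32.4% over all genes. The lists are small and were chosen with earlier results known, so these shares are not read as properties of the groups. PCSK5 reached the mean FPKM of 1 only through H596 and ADAM8 only through H2087. Of 10 genes for MMP activation and surface partners, 9 were compared, of which 3 were higher in H596, 3 lower and 3 not called, with a median difference of -0.43 against 0.12 over all genes. PCSK5, a proprotein convertase, had 0 counts in H2087 and an FPKM of 3.80 in H596. LCN2, a secreted protein that binds MMP9, had an FPKM of 13.8 in H2087 compared with 460 in H596, a ratio of 33.3. The plasminogen activators went the other way. PLAT had an FPKM of 122 in H2087 compared with 15.8 in H596, and PLAU had 318 and 130. BSG, a surface glycoprotein known to induce MMPs in neighbouring cells, had 516 and 382 and was not called.

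Of 6 other protease inhibitors, 3 were compared: TFPI2 was higher in H596, SERPINE2 lower, and RECK not called. TFPI2, which inhibits plasmin and is found in the matrix, had an FPKM of 5.85 in H2087 compared with 23.7 in H596. RECK, a membrane-anchored inhibitor of MMPs, had 2.48 and 1.03, and SERPINE2 had 6.75 and 2.30. The plain ratio of RECK was 2.40 in favour of H2087 (1.97 to 2.92), although its difference of -0.77 missed the 2-fold limit. The direction in which TIMP3 differed was thus shared by TFPI2 and not by SERPINE2 or RECK.

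Of 9 ADAM and ADAMTS genes, a related family that includes targets of TIMP3, 5 were compared, with 1 higher in H596, 2 lower and 2 not called. ADAM10 had an FPKM of 29.1 in H2087 compared with 79.2 in H596. ADAM15 had 112 and 53.5, and ADAM8 had 8.12 and 0.811. ADAM17, the best known target of TIMP3, had 16.1 (15.5 to 16.6) and 15.4 (14.9 to 15.9), with overlapping intervals. TIMP3 and ADAM17 transcripts therefore stood in different proportions in the libraries.

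Among matrix substrates, 11 of 16 genes were compared, of which 6 were higher in H596, 3 lower and 2 not called. The median difference was 1.61, the value of COL4A1. COL4A1, COL4A2 and COL4A5 reached the mean FPKM of 1 only through H596, and COL1A1 only through H2087. Their calls thus rest in part on that filter. COL4A5, a basement membrane collagen chain, had 0 counts in H2087 and an FPKM of 27.9 from 10317 counts in H596. The laminin chain genes LAMA5 and LAMB3 had an FPKM of 18.2 and 16.9 in H2087 and of 188 and 152 in H596. FN1, encoding fibronectin, had 55.1 in H2087 and 1.88 in H596, a 29.3-fold difference in the other direction. The substrates thus did not move as a group.

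Among AP-1 and ETS transcription factor genes, whose products are known to act at MMP promoters, 12 of 13 were compared, of which 3 were higher in H596, 6 lower and 3 not called, with a median difference of -0.84. FOSL1, an AP-1 subunit, had an FPKM of 67.6 in H2087 compared with 2.09 in H596. ETV4 had 28.2 and 0.884, and ETV5 had 37.0 and 0.0901. ETV4, ETV5 and ETV1 (9.65 and 0.00518), all called lower in H596, reached the mean FPKM of 1 only through H2087. ELF3, an epithelial ETS factor, had 197 and 330 and was not called. The 3 called higher in H596 were the AP-1 subunit genes JUNB (33.0 and 88.2) and FOSL2 (15.8 and 34.0) and the ETS gene ETS2 (13.3 and 56.8). The list thus held factors of both kinds that differed in either direction.

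**Figure D5:**
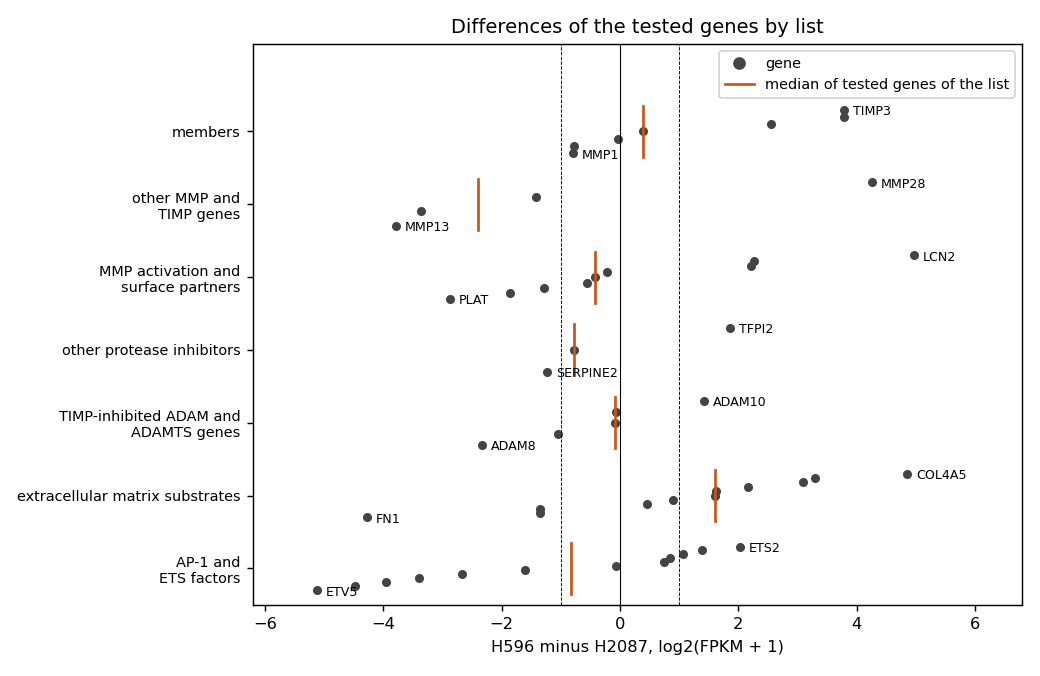
Difference of log2(FPKM + 1), H596 minus H2087, of the genes whose mean FPKM reached 1 in the members and in 6 other lists; points are genes, the coloured bar is the median of the list, dashed lines mark 2-fold, and the lowest and highest gene are named. Each list except that of the members holds genes past the 2-fold lines on both sides. In the list of other MMP and TIMP genes, all 4 points reached the mean FPKM of 1 through a single library.

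The labelled cell type was checked against markers. All 5 epithelial markers had an FPKM of at least 52.3 in both libraries, but their levels differed. KRT8, KRT18 and EPCAM were called lower in H596, KRT19 was called higher and CDH1 was not called, against 32.4% called over all genes. KRT18 had 3607 in H2087 and 234 in H596, and KRT19 had 561 and 2183. Of 7 lung adenocarcinoma markers, 5 had an FPKM of at least 1 in H2087 compared with 1, KRT7, in H596, where NKX2-1 had 0.508 and NAPSA 0.0645, against 110 and 21.9 in H2087. SFTPB and SFTPC were at or near 0 in both. Of 6 squamous markers, 2 had an FPKM of at least 1 in H2087 compared with all 6 in H596, where TP63 had 55.2 and KRT5 106, so the marker genes of H596 go against its label in part. The 6 fibroblast markers summed to an FPKM of 3.97 in H2087 compared with 10.7 in H596, with COL1A2 at 0 counts in both libraries. DCN, at 0 counts in H2087 and an FPKM of 9.77 in H596, and COL1A1, at 3.89 in H2087 and 0.916 in H596, went opposite ways. The 6 leukocyte markers summed to 130 and 26.0, almost all of it CD68, which also marks lysosomes, and PTPRC had 0 counts in both. These differences go with the same 2 libraries as those of the MMP and TIMP genes, and their part in them was not tested. In bulk RNA, fewer cells of a type and less RNA per cell cannot be told apart.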

How the data were processed

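RNA-seq data of 2 libraries were used, of untreated H2087 and H596 cells. Per the labels, total RNA was isolated with TRIzol and made into stranded mRNA libraries; per the submitters' processing notes, the tools were bcl2fastq 1.8.4, Trimmomatic, HISAT2 2.0.5 and StringTie 1.3.3b with hg19. The tables the authors deposited list 27685 genes and 63714 transcripts, and give 2 measures for each library. The first, an estimated count, is a whole number as deposited, and how reads shared between transcripts were divided is not given in the sources used here. The second, the FPKM value, was used as the authors made it, relative to length and library size.

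Wilson intervals of each count's share, and exact conditional Clopper-Pearson intervals of the ratio of 2 counts, were computed at 95% (scipy 1.17.1, Python 3.11.15), and a gene at 0 was taken to allow up to 3 counts. The SE of a sum or ratio is the Poisson error of its counts. All assume independent reads and cover counting error only. Genes were compared by log2(FPKM + 1), with a mean FPKM of at least 1 and a 2-fold limit. Alternatives included TMM scaling (edgeR 4.0.16, R 4.3.3), TPM, a pseudocount of 0.1 and other filters. The genes named were all members, every other family gene with an FPKM of at least 1, the genes that share a locus or flank the cluster, and in each other list the 3 with the largest difference and any with an FPKM of at least 100, except for a gene that is not reported here. TIMP4, MMP12, ADAM17, JUNB, FOSL2, ETS2, ETV1, COL4A1, COL4A2 and the marker genes named were chosen after their values were seen. Members and lists were chosen with earlier results of these data known. Strands are from GENCODE release 44 mapped to GRCh37.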

Additional observations from a re-analysis of the deposited data

How the results depend on the processing

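No paired analysis was possible because H2087 and H596 were sequenced once each, and for the same reason neither library could be left out. MMP7, MMP14 and TIMP3 were higher in H596 by more than 2-fold under every alternative to which they belonged; with a mean FPKM of at least 10, MMP7 was no longer compared and 2 members were called, because fewer genes were examined. The number of members called lower in H596 was 0 as reported and 1, MMP1, both with a pseudocount of 0.1 (difference -1.28, where all 3 higher calls held) and with TMM-scaled counts (-1.10). Without a filter, 3 of 10 members were called against 16.6% of all genes, and at a limit of 4-fold 3 of 7 against 10.1%. In TPM, 65.6% of all called genes were higher in H596, against 56.2% as deposited. The member ratio of TIMPs to MMPs, 4.25 in H2087 and 2.06 in H596, was 2.14 and 1.62 over all listed family genes, 1.51 and 1.54 from counts that are not divided by length, and 1.91 and 2.07 without the highest member on each side; in the last 2 settings H596 had the higher ratio. Of 50 recomputed member differences, 32 stayed within the counting error taken from the plain ratio, 18 moved beyond it and 0 of the called ones changed sign. MMP2 has no such interval, so its values could only count as staying. Taking the highest single transcript could move no member, because none had counts on more than a single transcript. MMP10 counted as staying at 2.52 against 0.65, because its interval is wide. The count of 32 is therefore no measure of stability. Depth limits the values of MMP2, MMP9 and MMP10.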
